A study of Mus musculus with 22 samples.

Results

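The genes described here encode the STAT3 branch of gp130 cytokine signalling. They were taken by symbol and are 10 of the 24411 genes listed in each deposited table of RNA-seq from mouse neural stem cells. Lifr, Il6st, Osmr and Cntfr are receptor genes, Jak1 and Jak2 are kinase genes, Stat3 is the transcription factor, Socs3 is an inhibitor and a target, and Serpina3n and Bcl3 are targets. All 10 were found in both tables, and 7 of them passed the filter on low counts in each arm.

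The cells were primary neural stem cells grown from the adult mouse hippocampus in medium with EGF and bFGF. There were 22 libraries in 4 groups. For the knockdown arm, lentivirus carried either a short hairpin against the Ogt transcript (ShOgt, 5 libraries) or the control hairpin ShLuc (6 libraries), and RNA was taken after 3 days at a dose of 10 viral particles to a cell. For the inhibitor arm, cells received OSMI-1, a compound that blocks O-GlcNAc transferase, at 12.5 µM (5 libraries) or the same volume of its DMSO vehicle (6 libraries), in both cases over 24 h. O-GlcNAc transferase is the product of Ogt and modifies proteins of the nucleus and the cytosol with the sugar N-acetylglucosamine. Mouse strain, age, sex and any selection of transduced cells are not given in the sources used here. No label ties the libraries to separate cultures or animals, so p-values measure only how far these libraries spread, which may be technical.

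Cytokines of the IL-6 family, among them IL-6, LIF, CNTF and oncostatin M, bind receptor complexes that share the chain gp130. Receptor-bound JAK kinases then phosphorylate STAT3, which moves to the nucleus and activates its targets, and SOCS3 binds gp130 and the JAKs and ends the signal. In neural stem cells this pathway is known for self-renewal under LIF and for driving the astrocyte fate, with Gfap as a direct STAT3 target. Its activity is set by phosphorylation, which RNA levels do not measure.

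The totals were 7.22 to 13.2 M reads per library in the knockdown arm and 4.52 to 12.8 M reads in the inhibitor arm, where all libraries but OSMI-1 4 held at most 5.93 M. ShLuc 1, ShLuc 3 and ShOgt 3 stood apart on principal components in the knockdown arm, and vehicle 1 and OSMI-1 5 in the inhibitor arm. ShLuc 3 and ShOgt 3, which share a replicate number, lay far out on the same side of component 3. The targeted transcript Ogt lay between 349 and 524 normalized counts in ShOgt libraries and between 737 and 1004 in ShLuc libraries, with no overlap (log2 fold change -0.98 ± 0.11, SE, limma adjusted p = 1.1e-06). The stem cell markers Nes and Fabp7 were abundant in all groups, with mean Nes levels of 5228 normalized counts in ShOgt libraries and 5591 in ShLuc libraries, and 3027 in OSMI-1 libraries and 2892 in vehicle libraries. Sox2 averaged 58.7 and 65.6 in ShOgt and ShLuc libraries, and 58.95 and 61.8 in OSMI-1 and vehicle libraries. Normalized counts are gene counts divided by the library's DESeq2 size factor, and the tables of both arms were scaled separately, so levels are compared within an arm.

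Per kb of transcript the 10 genes took the same broad order in all 4 groups. In ShOgt libraries the level was 436 ± 23.1 normalized counts per kb for Stat3, 331 ± 27.6 for Jak1, 123 ± 11.1 for Il6st and 24.2 ± 2.55 for Lifr (SD, n = 5). In ShLuc libraries it was 391 ± 24.9 for Stat3, 271 ± 20.6 for Jak1, 125 ± 15.9 for Il6st and 58.1 ± 6.52 for Lifr (SD, n = 6). The ranges of Stat3, Jak1, Il6st and Lifr did not overlap in either group. In OSMI-1 libraries the level per kb was 200.4 ± 11.4 for Stat3, 138 ± 14.99 for Jak1, 68.0 ± 1.71 for Il6st and 48.6 ± 12.3 for Lifr (SD, n = 5). In vehicle libraries it was 181 ± 15.9, 122 ± 6.78, 62.9 ± 8.28 and 38.7 ± 8.92 for the same genes (SD, n = 6). Here the ranges of Il6st and Lifr overlapped, whereas those of Stat3, Jak1 and Il6st did not. Serpina3n, Socs3 and Jak2 lay lower, between 4.46 and 27.5 per kb as group means, and changed places between groups. In ShOgt and in OSMI-1 libraries the range of Serpina3n overlapped that of Lifr. Osmr and Cntfr had group means of 0.614 to 1.31 per kb, with overlapping ranges, and Bcl3 was listed at 0.

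**Figure D1:**
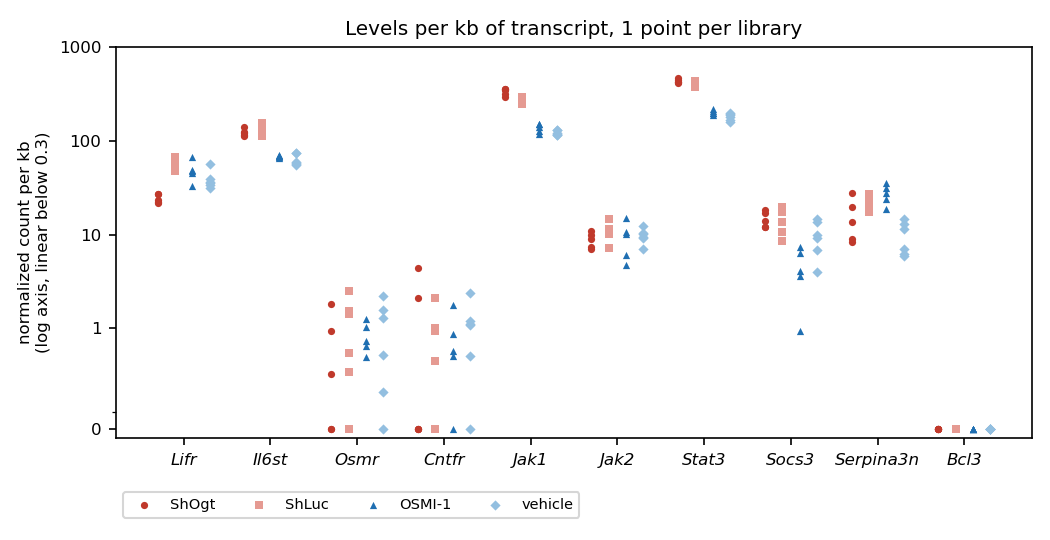
Normalized counts per kb of the longest coding transcript (log axis, linear below 0.3) for the 10 genes, 1 point per library, in ShOgt, ShLuc, OSMI-1 and vehicle libraries. Stat3, Jak1 and Il6st lead in every group, the Lifr points of ShOgt libraries lie below those of ShLuc libraries, and Bcl3 is at 0 throughout.

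The first comparison was that of ShOgt with ShLuc libraries, which sets the hairpin against Ogt beside the control hairpin. The labels name no second hairpin against Ogt. Effects of a lower Ogt level and effects of the hairpin that do not run through Ogt cannot be told apart. Of the 7 genes tested, Lifr fell and Jak1 rose, and the other 5 did not pass the threshold of an adjusted p of 0.05. Over all 12136 genes tested in this arm, limma called 31.8% (15.4% rose and 16.4% fell), so 2 calls among 7 genes are near the background. The median log2 fold change of the 7 genes was -0.01, against 0.01 over all tested genes. Log2 fold changes are fitted on log2(normalized count + 1), treated over control, a scale that understates the change of low genes, and they carry a standard error or a 95% interval.

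Lifr, on chr15:7090614-7197489 (GRCm38, plus strand), encodes the receptor that pairs with gp130 to bind LIF and that also serves CNTF. It had 226, 214, 259.7, 209 and 260.1 normalized counts in ShOgt libraries, against a lowest value of 459, a median of 571 and a highest value of 643 in ShLuc libraries. Every ShOgt library lay below every ShLuc library, and no other of the 7 genes was so separated. Of all tested genes 18.8% had groups that did not overlap, 9.96% with ShOgt below and 8.83% with ShOgt above. This gave a log2 fold change of -1.26 ± 0.11 (95% interval -1.49 to -1.02, limma adjusted p = 8.9e-08), or 0.419 of the ShLuc level. With any 1 library left out it stayed between -1.31 and -1.22. The summed level of 8 oligodendrocyte lineage markers was also lower in ShOgt libraries, at 10014 to 11543 normalized counts against 17774 to 20743 in ShLuc libraries, with 3 of 4 tested markers called lower, Olig1 most abundant and Mog at 0. Their part in the Lifr result was not tested. In bulk RNA fewer cells of a type and less RNA per cell cannot be told apart.

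Among the 10 genes, only Lifr carries the 7-base sequence AACATGC in an annotated 3′UTR (GENCODE annotation, GRCm38). The search for it followed from earlier results on these data, in which it was frequent among genes that fell. Ogt carries it as well. Among the other pathway genes called after knockdown, which are described below, only Mcl1 carries it, and Mcl1 rose. Stat5b, Shc1 and Birc5, which fell, lack it. The count in the 10 genes can be read beside all tested genes of the knockdown arm, 1155 with the sequence and 10194 without it. Both Lifr sites lie in the 3′UTR of the transcript Lifr-203, which is 6320 bases long. They are shown because Lifr is the gene of this set with the firmest fall. They are at chr15:7195930-7195936 and chr15:7197414-7197420, plus strand, with the 7 bases in capitals.
Lifr site 1: aaaatgaaaaaAACATGCtgaggataaaa
Lifr site 2: tctgtttttaaAACATGCatgtatttaac
Of 1155 tested genes with AACATGC in a 3′UTR, 28.3% fell and 8.92% rose in the knockdown arm, with a median log2 fold change of -0.17. Of 10194 tested genes without it, 15.6% fell and 16.3% rose, with a median of 0.02. In the inhibitor arm, 10.96% of 1113 carriers and 13.6% of 9583 other genes fell. The knockdown shares come from the same data that prompted the search, so they are no independent support for a link. Carriers were not matched with other genes for 3′UTR length, and a longer 3′UTR holds any 7-base sequence more often. Whether the site bears on the level of Lifr was not tested.

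Il6st, on chr13:112464070-112510086 (plus strand), encodes gp130 itself. It lay between 984 and 1230 normalized counts in ShOgt libraries and between 984 and 1338 in ShLuc libraries, so the groups overlapped over nearly their whole ranges. The log2 fold change was -0.01 with a 95% interval of -0.21 to 0.18 (limma adjusted p = 0.92). Osmr, the oncostatin M receptor gene on chr15:6813577-6874969 (minus strand), held 54 reads over the whole knockdown arm. It lay between 0 and 9.86 normalized counts in ShOgt libraries and between 0 and 13.6 in ShLuc libraries. Cntfr, on chr4:41657498-41697089 (minus strand), encodes the CNTF-binding chain that has no signalling domain of its own. It lay between 0 and 8.88 in ShOgt libraries and between 0 and 4.18 in ShLuc libraries. Neither Osmr nor Cntfr was deep enough for a test.

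Jak1, on chr4:101152367-101265282 (minus strand), encodes the kinase that gp130 complexes chiefly use. It had 1701, 1728, 1434, 1529 and 1732 normalized counts in ShOgt libraries, against a lowest value of 1209.7, a median of 1354 and a highest value of 1444 in ShLuc libraries. All ShOgt libraries but ShOgt 3 lay above the highest ShLuc library. Jak1 rose by 0.29 ± 0.08 on the log2 scale (95% interval 0.12 to 0.45, limma adjusted p = 0.0083), and the call held with any 1 library left out (adjusted p 0.0030 to 0.029). Jak2, on chr19:29251828-29313080 (plus strand), encodes the related kinase and had 55.1, 37.5, 45.2, 35.2 and 49.9 normalized counts in ShOgt libraries. In ShLuc libraries its lowest, median and highest values were 36.1, 55.3 and 73.7, overlapping those of ShOgt libraries. Its log2 fold change of -0.28 had a 95% interval of -0.78 to 0.22 (limma adjusted p = 0.40).

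Stat3, on chr11:100885098-100939540 (minus strand), had 2588, 2845, 2551, 2489.5 and 2695 normalized counts in ShOgt libraries. In ShLuc libraries its lowest value was 2236, its median 2282 and its highest 2599. All 5 ShOgt libraries lay above the ShLuc mean, and 2 of them above ShLuc 6, the highest ShLuc library. The log2 fold change was 0.16 ± 0.07 (95% interval 0.02 to 0.29) and missed the threshold (limma adjusted p = 0.076). It passed without ShLuc 6 (0.18, adjusted p = 0.048) and with libraries scaled to equal totals without the ribosomal precursor Rn45s (0.21, adjusted p = 0.021). With any library other than ShLuc 6 left out it missed the threshold (adjusted p up to 0.20, without ShOgt 2). The authors' deposited table gives Stat3 an adjusted p of 0.055.

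Socs3, on chr11:117966079-117970047 (minus strand), lay between 30.6 and 46.2 normalized counts in ShOgt libraries and between 22.1 and 50.1 in ShLuc libraries. All ShOgt values lay inside the range of ShLuc libraries. The log2 fold change was 0.02 with a 95% interval of -0.57 to 0.62 (limma adjusted p = 0.96), and its sign turned with edgeR and DESeq2 (-0.01 in each). Serpina3n, on chr12:104406729-104414329 (plus strand), encodes a secreted serine protease inhibitor known as a marker of reactive astrocytes. It had 18.7, 40.4, 28.2, 17.1 and 57.2 normalized counts in ShOgt libraries, against a lowest value of 35.5, a median of 44.1 and a highest value of 55.5 in ShLuc libraries. The ShOgt values spread on both sides of the ShLuc range, with 3 of them below it and 1 above it. The log2 fold change was -0.56 with a 95% interval of -1.21 to 0.09 (limma adjusted p = 0.18). The 10 other Serpina3 genes of the cluster summed to 0 to 4.23 normalized counts in ShOgt libraries and 0 to 37.0 in ShLuc libraries. Whether reads were shared between them and Serpina3n was not tested.

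Bcl3, on chr7:19808462-19822770 (minus strand), encodes a nuclear I-kappa-B protein that works with NF-kappa-B and is a known STAT3 target. It was listed at 0 in all 22 libraries. A count of 0 allows up to 3 reads, which is 0.0263 reads per 1 M reads over the pooled knockdown arm and 0.0466 over the pooled inhibitor arm. These limits cover counting error only.

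**Figure D2:**
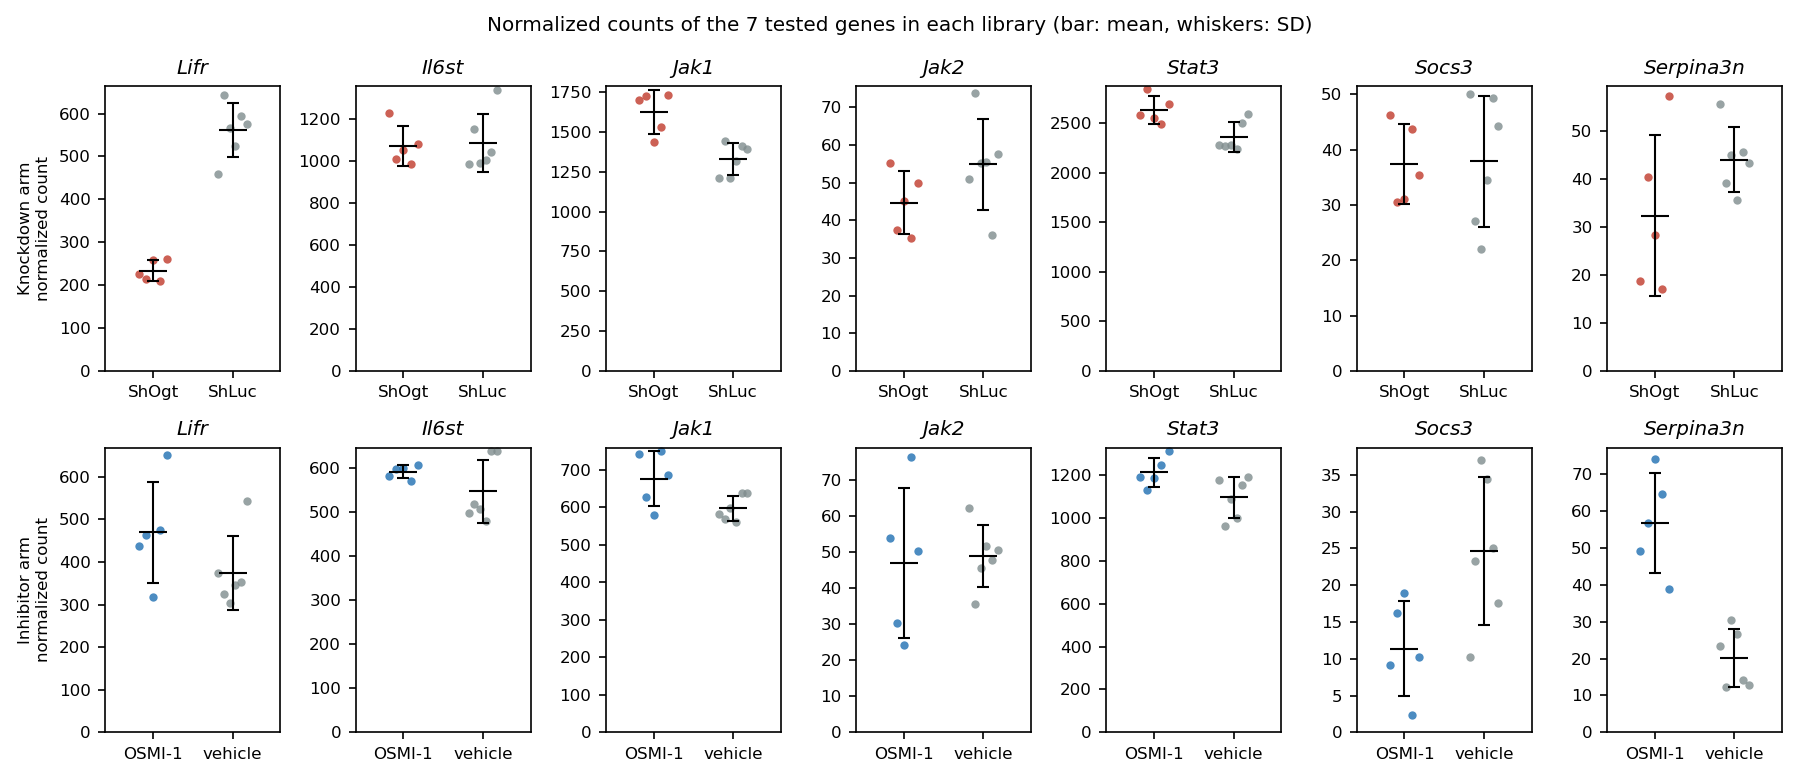
Normalized counts of the 7 tested genes by library, ShOgt beside ShLuc in the upper row and OSMI-1 beside vehicle in the lower row, each panel with its own axis from 0; bars are means and whiskers SDs (n = 5 and n = 6). Only Lifr separates ShOgt from ShLuc libraries (209 to 260.1 against 459 to 643), and only Serpina3n separates OSMI-1 from vehicle libraries (38.9 to 74.0 against 12.2 to 30.5).

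The second comparison was that of OSMI-1 with vehicle libraries, in which the enzyme and not its transcript was the target. Ogt itself rose (0.40 ± 0.08, limma adjusted p = 0.0010). Of the 7 genes tested, Serpina3n rose and Socs3 fell, and the remaining 5 missed the threshold. Over all 11349 genes tested in this arm 24.8% were called (11.6% rose and 13.2% fell), which again puts 2 calls among 7 near the background. The median log2 fold change of the 7 genes was 0.15, against 0.00 over all tested genes.

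Serpina3n had 49.2, 56.8, 74.0, 64.4 and 38.9 normalized counts in OSMI-1 libraries, against a lowest value of 12.2, a median of 18.9 and a highest value of 30.5 in vehicle libraries. Every OSMI-1 library lay above every vehicle library, and no other of the 7 genes was so separated. Of all tested genes 14.0% had groups that did not overlap, 6.27% with OSMI-1 above and 7.71% with OSMI-1 below. These levels rest on 34 to 172 reads per OSMI-1 library and 11 to 28 reads per vehicle library. Serpina3n rose by 1.51 ± 0.28 on the log2 scale (95% interval 0.93 to 2.08, limma adjusted p = 0.00028), or 2.85 times the vehicle level. It stayed between 1.39 and 1.64 with any 1 library left out, with adjusted p at most 0.0017. The 10 other Serpina3 genes of the cluster, whose reads the authors' counting could have shared with Serpina3n, summed to 0 to 7.16 normalized counts in OSMI-1 libraries and 0 to 3.53 in vehicle libraries. The summed level of 7 astrocyte markers was 3710 to 4151 normalized counts in OSMI-1 libraries and 3046 to 3367 in vehicle libraries, with 3 of 5 tested markers called higher. Aldh1l1 was the most abundant of them and S100b had the largest rise (log2 1.28, limma adjusted p = 2.5e-05). Gfap, the defining filament, averaged 3.20 ± 2.82 in OSMI-1 libraries and 8.97 ± 4.65 in vehicle libraries and was too low to test. Summed microglia and immune markers lay at 11.9 to 24.1 normalized counts in OSMI-1 libraries and 7.65 to 25.1 in vehicle libraries, with Aif1 at 0. The part of other cell types in the Serpina3n result was not tested.

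Socs3 had 9.11, 16.2, 18.9, 2.39 and 10.3 normalized counts in OSMI-1 libraries, against a lowest value of 10.2, a median of 24.2 and a highest value of 37.0 in vehicle libraries. All 5 OSMI-1 libraries lay below the vehicle mean, but 3 of them lay above vehicle 1, the lowest vehicle library. OSMI-1 5, at 2.39, rests on 2 reads. Socs3 had a fitted log2 fold change of -1.16 ± 0.43 (95% interval -2.05 to -0.28, limma adjusted p = 0.049). The call was lost when any 1 of 8 libraries was left out (OSMI-1 1, 5 or 6, or vehicle 2, 3, 4, 5 or 6), with adjusted p between 0.054 and 0.15 and a fold change of -0.75 without OSMI-1 5. It was also lost with edgeR (0.060) and DESeq2 (0.056) on the recovered reads, and the authors' deposited table gives an adjusted p of 0.056.

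The promoter windows of the 10 genes, 250 bases before to 50 after the start, were searched for TTCNNNGAA, the palindromic core that STAT dimers bind, which reads the same on both strands. All 10 genes have windows, 16 in all, placed on RefSeq starts (GRCm38.p6), which can differ from the ends of the GENCODE spans given above. Only 1 window, that of Socs3, held a match (TTCTTAGAA, 154 bases before the RefSeq start). That window lies inside the GENCODE span of Socs3 (chr11:117966079-117970047), so the match is not upstream of the outermost GENCODE start. Of all 32851 promoter windows 8.30% hold the motif. The windows of Socs3 (chr11:117969317-117969616, minus strand) and Serpina3n (chr12:104406458-104406757, plus strand) are shown because these were the genes called after OSMI-1, with the motif in capitals where present.
Socs3 promoter: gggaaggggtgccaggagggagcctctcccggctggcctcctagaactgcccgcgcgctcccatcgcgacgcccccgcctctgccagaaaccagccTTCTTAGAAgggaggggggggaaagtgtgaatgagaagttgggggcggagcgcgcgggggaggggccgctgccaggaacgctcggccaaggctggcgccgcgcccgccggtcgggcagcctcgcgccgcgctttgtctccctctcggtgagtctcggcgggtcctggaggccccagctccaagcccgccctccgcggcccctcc
Serpina3n promoter: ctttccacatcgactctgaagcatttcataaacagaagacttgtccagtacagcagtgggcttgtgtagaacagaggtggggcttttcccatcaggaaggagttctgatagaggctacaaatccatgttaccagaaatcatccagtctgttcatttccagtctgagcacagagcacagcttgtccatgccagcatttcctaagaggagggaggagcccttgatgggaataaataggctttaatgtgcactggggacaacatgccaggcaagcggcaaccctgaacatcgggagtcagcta
A match describes the letters of the window, and no binding was measured.

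The remaining genes of the inhibitor arm did not pass the threshold. Lifr had 437, 464, 318, 476 and 651 normalized counts in OSMI-1 libraries, against a lowest value of 305, a median of 349 and a highest value of 543 in vehicle libraries. The groups overlapped through OSMI-1 4 at the low end and vehicle 6 at the high end. Its log2 fold change was 0.32 (95% interval 0.01 to 0.62, limma adjusted p = 0.12), and it passed the threshold without OSMI-1 4 (0.45, adjusted p = 0.022) or without vehicle 6 (0.43, adjusted p = 0.022). Without OSMI-1 6, the highest OSMI-1 library, it was 0.19 (adjusted p = 0.37). Jak1 had 741, 626, 579, 749 and 687 normalized counts in OSMI-1 libraries, against a lowest value of 561, a median of 589.6 and a highest value of 637 in vehicle libraries. Of the OSMI-1 libraries 3 exceeded all vehicle libraries in Jak1. Its log2 fold change was 0.17 (95% interval 0.0036 to 0.35, limma adjusted p = 0.13), with an adjusted p of 0.049 without OSMI-1 4 and of up to 0.29 with another library left out.

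Stat3 had 1190.2, 1127, 1184, 1243 and 1309 normalized counts in OSMI-1 libraries, against a lowest value of 961, a median of 1119 and a highest value of 1191 in vehicle libraries. As after knockdown, all 5 treated libraries lay above the control mean. The log2 fold change was 0.15 (95% interval -0.0038 to 0.30, limma adjusted p = 0.15). Il6st lay between 569 and 606 normalized counts in OSMI-1 libraries and between 479.9 and 637 in vehicle libraries (log2 0.12, 95% interval -0.06 to 0.31, limma adjusted p = 0.33). The OSMI-1 libraries formed a narrow band inside the vehicle range. Jak2 had 53.8, 30.4, 24.1, 76.4 and 50.4 normalized counts in OSMI-1 libraries and 35.6 to 62.3 in vehicle libraries. Its fold change of -0.15 on the log2 scale had a 95% interval of -0.68 to 0.37. Osmr lay between 2.73 and 6.89 normalized counts in OSMI-1 libraries and between 0 and 12.2 in vehicle libraries, and Cntfr between 0 and 3.58 in OSMI-1 libraries and between 0 and 4.70 in vehicle libraries.

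**Figure D3:**
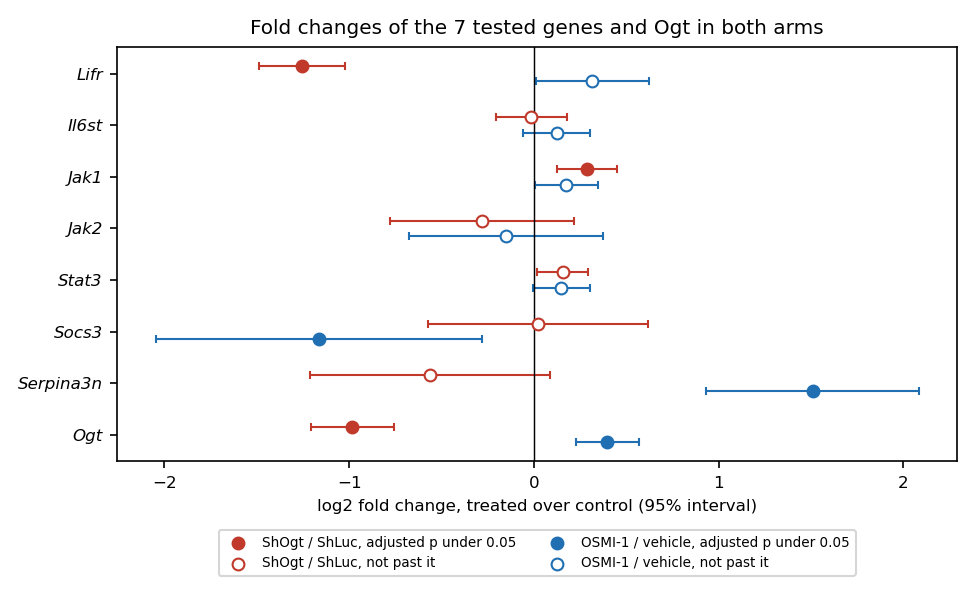
Log2 fold changes with 95% intervals for the 7 tested genes and Ogt, ShOgt over ShLuc in red and OSMI-1 over vehicle in blue; filled points have an adjusted p under 0.05. Lifr (-1.26 and 0.32) and Serpina3n (-0.56 and 1.51) differ between the arms, while the Stat3 points (0.16 and 0.15) nearly coincide.

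The difference between the log2 fold changes of both arms was tested in 1 limma fit over all 22 libraries, for the 11269 genes tested in both arms, of which 22.9% were called. Of the 7 genes, 2 differed. The Lifr fold change was lower after knockdown than after OSMI-1 by a log2 difference of -1.57 ± 0.20 (95% interval -1.97 to -1.17, adjusted p = 3.3e-07). The Serpina3n fold change was likewise lower after knockdown, with a difference of -2.07 ± 0.42 (95% interval -2.93 to -1.21, adjusted p = 0.00042). Both calls held with any 1 library left out. For Socs3 the difference was 1.19 with a 95% interval of 0.11 to 2.27, which missed the threshold (adjusted p = 0.11) and passed it without vehicle 1 (adjusted p = 0.047). Without OSMI-1 5 the Socs3 difference was 0.78 (adjusted p = 0.25). The Stat3 difference was 0.01 with a 95% interval of -0.19 to 0.20, that of Jak1 0.11 with -0.12 to 0.34, and that of Il6st -0.14 with -0.40 to 0.12. The Jak2 difference of -0.13 had a wide interval of -0.85 to 0.59. Agent, duration and delivery all differ between the arms and cannot be told apart.

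**Figure D4:**
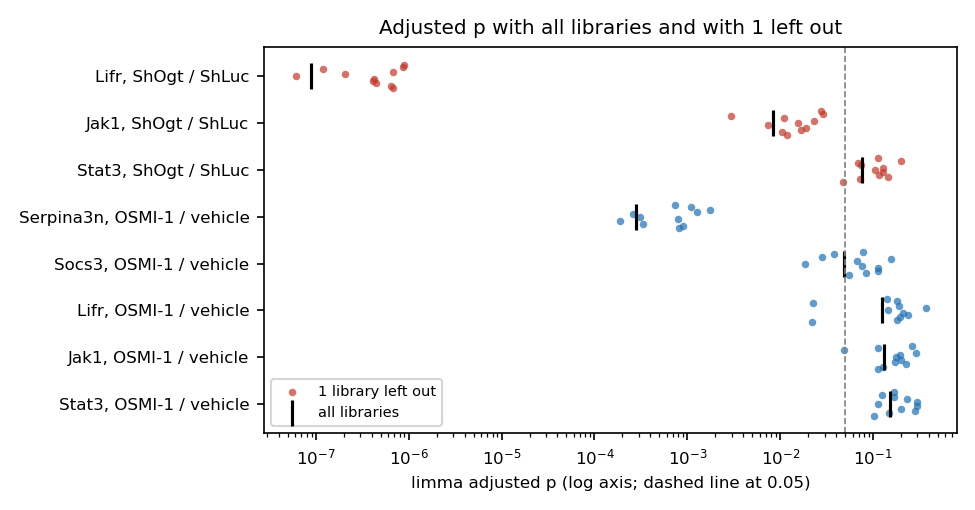
Adjusted p (log axis) of 8 results with all libraries (black tick) and with each library left out in turn (points), the dashed line at 0.05. Lifr and Jak1 after knockdown and Serpina3n after OSMI-1 stay left of the line, whereas Socs3 after OSMI-1 lies on both sides of it.

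The other genes of the pathway were taken from lists of 83 genes in all, which were written with earlier results of these data known. After knockdown 51 were tested, of which 12 rose and 3 fell, with a median log2 fold change of 0.06 against 0.01 over all genes. The share that rose can be read beside the 15.4% and the share that fell beside the 16.4% of all tested genes. After OSMI-1 49 were tested, of which 7 rose and 4 fell, with a median of 0.09 against 0.00 over all genes, beside backgrounds of 11.6% and 13.2%.

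Of the ligand genes, Lif was not called in either arm. It averaged 17.9 normalized counts in ShOgt libraries and 9.22 in ShLuc libraries (log2 1.31, limma adjusted p = 0.16), and 7.87 in OSMI-1 libraries and 11.1 in vehicle libraries (-0.67, adjusted p = 0.33). Il6 was at 0 in every knockdown-arm library, and Osm and Ctf1 were at 0 in every inhibitor-arm library. Of the other receptors, the interleukin 6 receptor gene Il6ra rose after OSMI-1, to 35.5 ± 5.93 normalized counts in OSMI-1 libraries, against 21.1 ± 7.04 in vehicle libraries (log2 0.78 ± 0.28, limma adjusted p = 0.042). Il11ra1, the interleukin 11 receptor gene, averaged 1972 in ShOgt libraries and 2116 in ShLuc libraries (log2 -0.10, adjusted p = 0.33).

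Among the other JAK and STAT genes, Stat5b, whose product serves growth hormone and related cytokines, fell after knockdown to 102 ± 32.4 normalized counts in ShOgt libraries, against 183 ± 28.9 in ShLuc libraries (log2 -0.88 ± 0.20, limma adjusted p = 0.0021). Stat2, an interferon-pathway STAT, rose after OSMI-1 to 58.5 ± 17.96, against 35.4 ± 9.66 in vehicle libraries (log2 0.69 ± 0.24, adjusted p = 0.037). Of 4 adaptors only Shc1, which links receptors to RAS, was called, with a fall after knockdown (-0.41 ± 0.11, adjusted p = 0.0065).

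Of 13 inhibitor genes tested in each arm, 3 rose after knockdown (15.4% of all tested genes did) and 2 other ones after OSMI-1 (11.6% did). After knockdown these were Cish, a feedback inhibitor of STAT5 signalling, and the phosphatase genes Ptpn6 and Ptpn2. Cish reached 49.3 ± 14.3 normalized counts in ShOgt libraries, against 13.9 ± 11.3 in ShLuc libraries (log2 2.02 ± 0.45, limma adjusted p = 0.0018). Ptpn6 rose by 1.00 ± 0.31 (adjusted p = 0.017), a call lost without ShOgt 5 (0.060). Ptpn2 rose by 0.38 ± 0.14 (adjusted p = 0.041), a call lost when ShOgt 1, 2, 3 or 6 or ShLuc 1, 4 or 5 was left out (up to 0.098). After OSMI-1 the SOCS family genes Socs5 (0.48 ± 0.13, adjusted p = 0.010) and Socs6 (0.40 ± 0.14, adjusted p = 0.039) rose.

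Of 18 STAT3 target genes 13 were tested after knockdown, of which 6 rose and 1 fell, beside 15.4% and 16.4% of all tested genes. The survival genes Mcl1 (0.57 ± 0.14, limma adjusted p = 0.0039) and Bcl2l1 (0.34 ± 0.07, adjusted p = 0.00063) rose. So did the immediate early genes Junb (0.66 ± 0.14, adjusted p = 0.0012) and Fos (0.63 ± 0.23, adjusted p = 0.039). The Fos call was lost when any ShOgt library or ShLuc 1 or 2 was left out (up to 0.091). Timp1, a metalloproteinase inhibitor gene, averaged 74.3 ± 11.5 normalized counts in ShOgt libraries and 40.1 ± 11.1 in ShLuc libraries, with no overlap (0.90 ± 0.24, adjusted p = 0.0070). The interferon regulatory factor gene Irf1 averaged 364 ± 40.0 in ShOgt libraries and 258 ± 66.6 in ShLuc libraries (0.52 ± 0.15, adjusted p = 0.010). Birc5, which encodes survivin and is expressed in dividing cells, fell (-0.77 ± 0.10, adjusted p = 5.3e-06).

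After OSMI-1, 12 STAT3 target genes were tested, of which 1 rose and 3 fell, beside 11.6% and 13.2% of all tested genes. The cyclin gene Ccnd1 rose by 0.18 ± 0.06 (limma adjusted p = 0.034), and the kinase gene Pim3 fell by 0.39 ± 0.13 on the log2 scale (adjusted p = 0.031). Birc5 fell in this arm too, to 313 ± 37.8 normalized counts in OSMI-1 libraries, against 694 ± 77.2 in vehicle libraries (-1.15 ± 0.10, adjusted p = 7.4e-09). Irf1 averaged 72.9 ± 21.5 in OSMI-1 libraries and 99.9 ± 6.41 in vehicle libraries (-0.49 ± 0.17, adjusted p = 0.038). Its fold changes differed between the arms by 1.01 (95% interval 0.55 to 1.47, adjusted p = 0.0012).

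Among 10 genes of reactive glia, 4 of 7 tested rose after knockdown and none fell, beside 15.4% and 16.4% of all tested genes. The 4 that rose were the filament gene Vim, the chemokine gene Cxcl10, the small heat shock gene Hspb1, and Timp1 again. As the list was written with earlier results of these data known, the count is not independent of them. Cxcl10 averaged 55.9 ± 17.1 normalized counts in ShOgt libraries and 7.87 ± 3.58 in ShLuc libraries (log2 2.74 ± 0.39, limma adjusted p = 2.6e-05). Hspb1 averaged 78.8 ± 14.1 in ShOgt libraries and 29.1 ± 10.2 in ShLuc libraries (1.46 ± 0.28, adjusted p = 0.00045). Gfap, the STAT3 target that defines astrocytes, averaged 15.1 ± 7.54 in ShOgt libraries and 19.1 ± 4.33 in ShLuc libraries (-0.42, adjusted p = 0.45). Summed microglia and immune markers were 22.6 to 42.7 normalized counts in ShOgt libraries and 7.46 to 29.9 in ShLuc libraries, with Cx3cr1 and C1qa at 0.

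Other marker lists also moved in the knockdown arm. None of 6 tested astrocyte markers rose and 2 fell, Sox9 (log2 -0.64, limma adjusted p = 1.4e-05) and Slc1a2 (-0.46, adjusted p = 0.0100). The 7 astrocyte markers summed to 5682 to 6759 normalized counts in ShOgt libraries and 6175 to 6975 in ShLuc libraries. Of 4 tested neuron markers Syt1 (2.52, adjusted p = 1.7e-07) and Tubb3 (0.77, adjusted p = 0.00011) rose and Map2 fell (-0.39, adjusted p = 0.00024). The 6 neuron markers summed to 3011 to 3442 in ShOgt libraries and 3270 to 4037 in ShLuc libraries. Of the endothelial, mural and fibroblast markers only Tek was tested, and it rose (2.17, limma adjusted p = 0.039). Their sum was 14.9 to 72.0 in ShOgt libraries and 10.4 to 39.4 in ShLuc libraries. The part of other cell types in the rise of reactive glia genes was not tested.

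Vim averaged 10928 ± 1284 normalized counts in ShOgt libraries and 7745 ± 512 in ShLuc libraries (0.49 ± 0.07, limma adjusted p = 4.2e-05). It fell after OSMI-1, to 4329 ± 594 in OSMI-1 libraries, against 6095 ± 660.4 in vehicle libraries (-0.50 ± 0.09, adjusted p = 0.00016). The difference between its fold changes was 0.99 (95% interval 0.74 to 1.24, adjusted p = 2.4e-07). Vim was the 1 gene of reactive glia called among 5 tested after OSMI-1. Of the NF-kappa-B genes that work with Bcl3, none of 5 tested was called after knockdown. Nfkb2 (0.62 ± 0.15, adjusted p = 0.0036) and Nfkbia (0.36 ± 0.13, adjusted p = 0.045) rose after OSMI-1.

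Of the 15 calls in these lists after knockdown, 12 held with any 1 library left out, and of the 11 calls after OSMI-1 only those of Socs5, Birc5, Vim and Nfkb2 did. The highest adjusted p with 1 library left out was 0.10 for Il6ra, 0.11 for Stat2, 0.093 for Socs6, 0.088 for Ccnd1, 0.10 for Pim3, 0.12 for Irf1 and 0.12 for Nfkbia. With edgeR the calls of Fos after knockdown (adjusted p = 0.055) and Irf1 after OSMI-1 (0.077) were lost as well. Leaving out OSMI-1 2, OSMI-1 4, OSMI-1 5 or vehicle 4 ended 6 of these 7 calls each, vehicle 5 ended 5, vehicle 3 and vehicle 6 ended 4 each, vehicle 1 and vehicle 2 ended 3 each, and OSMI-1 1 and OSMI-1 6 ended 2 each.

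**Figure D5:**
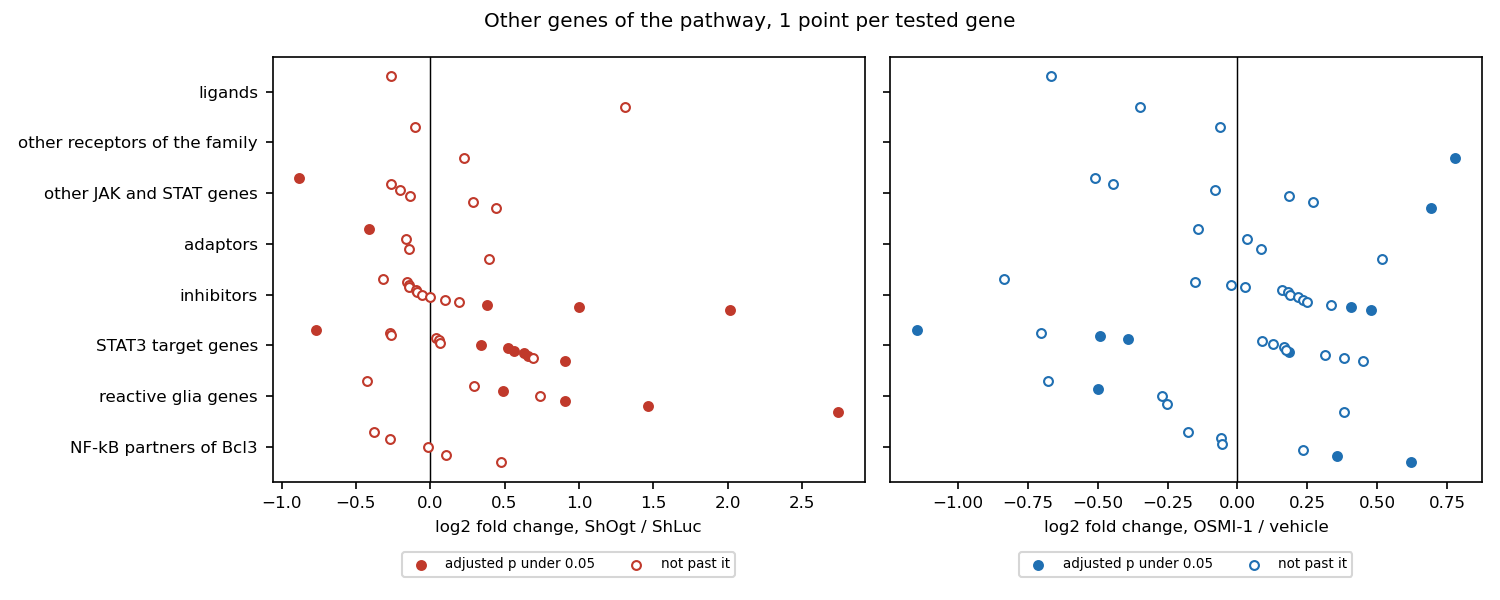
Log2 fold changes of the tested genes of each pathway list, ShOgt over ShLuc on the left and OSMI-1 over vehicle on the right, 1 point per gene; filled points have an adjusted p under 0.05. Filled points on the left lie mostly to the right of 0 among STAT3 targets and reactive glia genes (10 rises and 1 fall, Timp1 in both lists), and on the right they lie on both sides. Over all tested genes 15.4% rose and 16.4% fell after knockdown, and the lists were written with earlier results known.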

How the data were processed

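The libraries were assigned to 4 groups from the sample labels. The extract protocol names a strand-specific poly(A) kit and the design text Smart-Seq2, and which applies is unclear. STAR, RSEM and DESeq2 were used, per the submitters' processing notes, which give no versions and name a human build although the symbols are those of mouse, so no coordinates of theirs were used.

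Per the file headers, each deposited table lists normalized counts for each library (a signal never below 0), the authors' log2 fold change and its error, a score (the Wald statistic), and p-values with their adjusted form. That fold change is ShOgt over ShLuc in the knockdown table but vehicle over OSMI-1 in the inhibitor table, and here every fold change is given treated over control. All values above 0 were whole multiples of 1 step per library (100% within 0.001), so whole reads were recovered. No libraries were merged, since every pair differed beyond sampling noise (chi-square over its degrees of freedom at least 5.86 for knockdown-arm pairs and 3.74 for inhibitor-arm pairs). Rn45s, a ribosomal precursor, held 0.921 to 1.25% of knockdown-arm reads and 4.81 to 14.2% of inhibitor-arm reads.

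Low genes were removed with filterByExpr of edgeR (minimum count 10, minimum total 15 on recovered reads), leaving 12136 and 11349 genes. The main test was limma 3.58.1 on log2(normalized count + 1) with its mean-variance trend, two-sided, without covariates, with Benjamini-Hochberg adjustment over all tested genes at 0.05, in R 4.3.3. The difference between the arms was a contrast of 4 group means in 1 limma fit. The limma and edgeR fits were tested on simulated data. Alternatives were edgeR 4.0.16 and DESeq2 1.42.0 on recovered reads, other scalings, pseudocounts of 0.5 and 5, other filters, a replicate block, and leaving out libraries. Levels per kb used the longest coding transcript of GENCODE. The text names all 10 genes, Ogt, every called gene of the pathway lists and the marker genes needed to describe a list. Members and lists were chosen with earlier results of these data known.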

Additional observations from a re-analysis of the deposited data

Results flagged for a closer look

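The chance of a library being marked is about 1 in 20 per group, and 7 libraries were marked among 122 group tests over 34 genes. Lifr in vehicle 6 stood at 543 normalized counts, against at most 374 in the other vehicle libraries, and without it the fold change of Lifr after OSMI-1 passed the threshold. Ogt in ShLuc 2 stood at 1004, against at most 836 in the other ShLuc libraries. ShLuc 1, which stands apart on principal components, was the lowest ShLuc library for Shc1 (607, the others at least 852) and the highest for Irf1 (386, the others at most 265) and Vim (8737, the others at most 7755). Cish in ShLuc 6 stood at 35.3, the others at most 14.6, and Nfkb2 in ShLuc 3 at 359.9, the others at most 288.

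The log2 fold changes after knockdown and after OSMI-1 differed by -1.57 for Lifr, -2.07 for Serpina3n, 1.01 for Irf1 and 0.99 for Vim, each past an adjusted p of 0.05 in limma's test of the difference.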

How the results depend on the processing

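Calls over all genes ran from 3493 to 4063 after knockdown, from 2373 to 2964 after OSMI-1 and from 2334 to 2991 for the difference over the alternatives without single omissions, and from 3209 to 3893, 2427 to 2671 and 2263 to 2649 with 1 library left out. Among the 10 genes, 2 were called after OSMI-1, and this fell to 1 (Serpina3n) with edgeR, DESeq2, a pseudocount of 0.5 and no filter, and to 0 with a mean of at least 50, where Serpina3n and Socs3 were no longer tested. The count called different then became 1. With 1 library left out it was 2 to 3 after knockdown, 1 to 4 after OSMI-1 and 2 to 3 for the difference. Fold changes that turned sign were all far from the threshold: Socs3 after knockdown with edgeR (-0.0138) and DESeq2 (-0.0111), Il6st after knockdown with equal totals (0.0405), and the Stat3 difference without the libraries that stood apart (-0.0169). With 1 library left out, Il6st after knockdown ran from -0.0654 to 0.0473, Socs3 after knockdown from -0.12 to 0.11, Jak2 after OSMI-1 from -0.35 to 0.0542, the Stat3 difference from -0.02004 to 0.0448 and the Jak2 difference from -0.34 to 0.0709. Equal totals moved the median of all genes in the knockdown arm to 0.07, from which Stat3, at 0.21, is to be read. Without the libraries that stood apart, 2 of 15 pathway calls after knockdown and 6 of 11 after OSMI-1 were lost.

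Replicate numbers did not pair the samples in general: the correlation of same-numbered deviations ranged over -0.0086 to 0.16 for knockdown and over -0.099 to 0.051 for OSMI-1. The exception was number 3 of the knockdown arm, with the 0.16, where ShOgt 3 correlated most with ShLuc 3. These 2 libraries also lay at 34.0 and 33.6 on principal component 3. Whether they share a batch is not given by the labels. With the replicate block, 3966 genes were called after knockdown, 2373 after OSMI-1 and 2412 for the difference. Of the 10 genes 2, 1 and 2 were called, with Socs3 after OSMI-1 at an adjusted p of 0.095, and the Stat3 difference was -0.0065. Depth limits Osmr and Cntfr, which were not tested, and Socs3, with 2 to 44 reads per inhibitor-arm library.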

Other observations

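In vehicle 5 and vehicle 6, Il6st and Jak1 have the same number of reads as each other, 534 in vehicle 5 and 542 in vehicle 6, whereas in the other 9 libraries of the inhibitor arm their numbers differ.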
